A study of Mus musculus with 4 samples.

Results

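The 44 genes described here encode the actin cytoskeleton and the contractile machinery of the cell: actins, tropomyosins, non-muscle myosin II, bundling and crosslinking proteins, focal adhesion proteins, proteins of actin turnover, and membrane linkers with their annexin and S100 partners. They were taken by gene symbol from a list of named genes, and all 44 were found among the 24493 genes of the expression table. RNA-seq had been made from mouse hepatocytes, the metabolic cells of the liver, kept in 3D culture (Hep_3D, 2 libraries), and from biliary cells derived from hepatocytes and kept in 2D culture (Bil_2D, 2 libraries). All libraries were from the C57BL/6 strain background and received no treatment. Clone 15C7 gave replicate 1 of each group and clone 19H5 gave replicate 2. The labels do not say whether the clones came from separate animals, so p-values measure only the spread between these libraries. Each cell state was grown in its own culture format, so that cell state and format cannot be told apart.

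Actin monomers assemble into filaments, which tropomyosins coat, non-muscle myosin II pulls on, and crosslinkers tie into bundles and networks. Focal adhesions anchor the bundles to the substrate, and turnover proteins recycle the monomers. In the liver, hepatocytes carry cortical actin and a dense web around the bile canaliculus, while biliary epithelial cells line ducts and carry an apical brush of microvilli. Many genes of the filament system are known targets of serum response factor (SRF), which binds the CArG box, a run of A and T bases between CC and GG.

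Values are given in TPM (a share of each library's transcripts, corrected for transcript length), first for replicate 1 and then for replicate 2. Differences were tested with limma on log2(TPM + 1) over the 12336 genes that reached 1 TPM in at least 2 libraries, and called at a Benjamini-Hochberg adjusted p under 0.05 over all of them. A negative log2 fold change means lower in Hep_3D. The median of all tested genes lay at -0.73 on that scale. Counts of calls and the values of most members are therefore also given after division by median-of-ratios size factors. For named genes outside the members this is done only in part. The factors set the typical gene level between libraries and put that median at -0.02. Such values are called rescaled in what follows, and a call is on TPM where nothing else is said. Read depth is unknown, since TPM keeps none, and each group has 2 libraries: an exact permutation test of 2 against 2 cannot go below 0.33.

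Annotated promoters were searched for the CArG box because several members are textbook SRF targets. Of the 44 members, 39 had promoter entries in RefSeq (GRCm38.p6, the assembly also called mm10), each reaching from 250 bases before to 50 after an annotated start. Actb, Anxa3, Pxn, S100a10 and Tagln had none. A CArG box was found in 5 of the 45 member promoters (11.1%), against 1.63% of all 32851 promoters and 1.29% of the promoters of genes tested here, searching both strands. The 5 matches are shown in 50-base windows, read 5′ to 3′ on the strand of the gene, with the box in capitals.
Actg1: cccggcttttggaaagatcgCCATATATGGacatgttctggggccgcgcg
Cnn2: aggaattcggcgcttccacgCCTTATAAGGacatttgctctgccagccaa
Myl6: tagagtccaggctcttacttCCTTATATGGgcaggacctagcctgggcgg
Myl9: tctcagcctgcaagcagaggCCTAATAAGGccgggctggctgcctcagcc
Vcl: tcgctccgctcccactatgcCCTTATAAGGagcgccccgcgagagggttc

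The window of Actg1 lies at chr11:120348556-120348605 on the minus strand, with the box starting 90 bases before the annotated start. That of Cnn2 lies at chr10:79988524-79988573 on the plus strand, 56 bases before. The Myl6 window lies at chr10:128493030-128493079 on the minus strand, 50 bases before. The Myl9 window is at chr2:156775283-156775332 on the plus strand, 161 bases before, and the Vcl window at chr14:20929151-20929200 on the plus strand, 227 bases before. GGAATG, the core bound by TEAD factors, had a match in the promoters of 11 of the 39 members (28.2%). The background was 16.6% of genes with a promoter entry outside chromosome 18 and 14.3% of those tested here. TATAAA had a match in 3 of the 39 (7.69%) against 15.7 and 9.05% of the same sets. None of the 5 CArG matches overlapped a match to either of these motifs (0 of them). A match is a description of letters and does not show that a factor binds there.

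The actin cytoskeleton genes stood lower in Hep_3D than in Bil_2D almost throughout. Of the 44 members, 42 passed the filter on low values, and 38 of these fell in Hep_3D on the TPM scale while 0 rose, where 51.9% of all tested genes fell and 6.80% rose (58.7% in either direction). After rescaling 21 members fell and 0 rose, beside a background of 9.54% lower, 11.9% higher and 21.4% in either direction. In either case 0 members stood higher at an unadjusted p under 0.05. The median log2 fold change of the 42 members was -1.89 in TPM and -1.07 after rescaling. Together the 44 genes took 3.67 and 3.61% of all TPM in the Bil_2D libraries and 0.901 and 0.798% in the Hep_3D libraries. In bulk RNA, fewer cells of a type and less RNA per cell cannot be told apart.

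**Figure D1:**
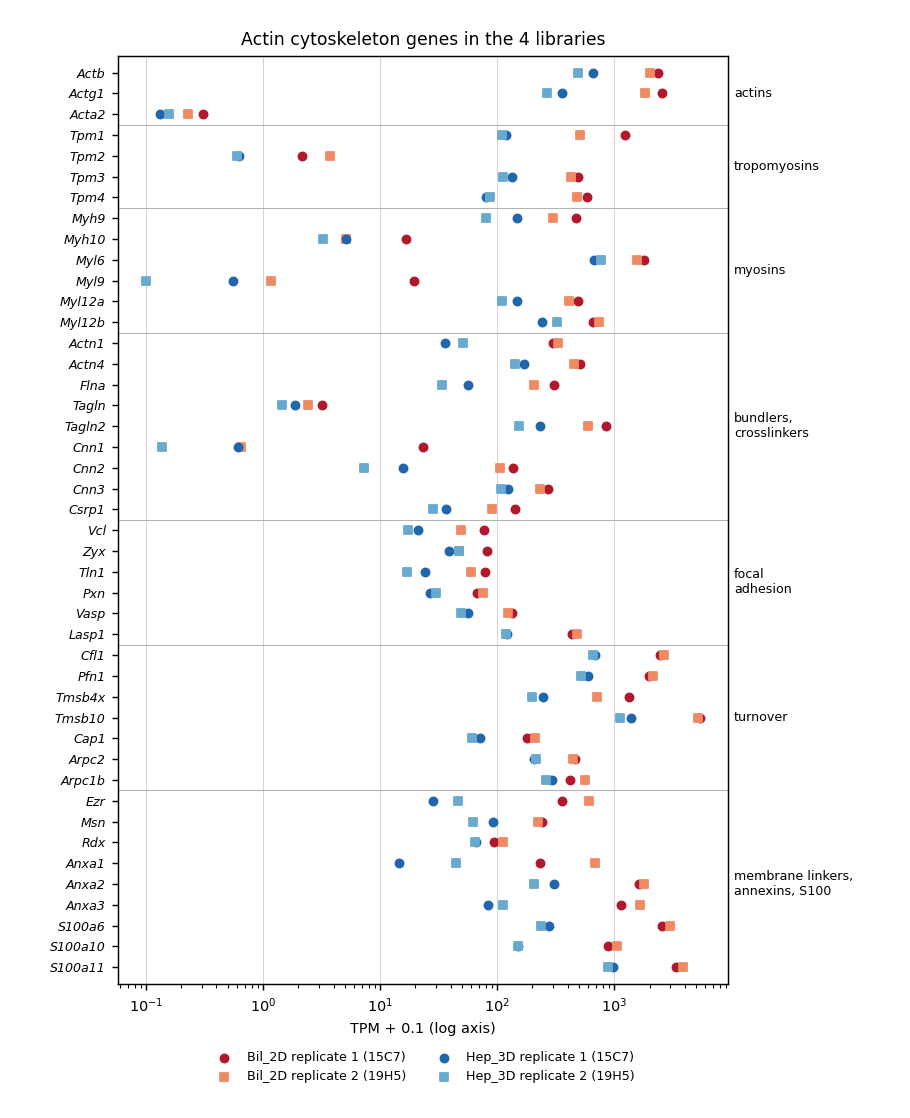
TPM of the members in each of the 4 libraries (log scale), ordered by functional group. Points are single libraries, with Bil_2D and Hep_3D in different colours; in 41 of the 42 tested members both Hep_3D points lie below both Bil_2D points.

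The groups did not overlap in 41 of the 42 tested members on the TPM scale, all lower in Hep_3D, where 71.9% of all tested genes did the same. After rescaling 37 members lay apart and lower, beside 34.7% of all genes, and 1 lay apart and higher, beside 33.6%. The members that were not called on the TPM scale were Myh10, Myl9, Tagln and Zyx, and the 2 under the filter were Acta2 and Cnn1. Tpm2 and Myl9 reached 1 TPM in the Bil_2D libraries alone. With the clone as a block, the same 38 members fell on the TPM scale (background 58.1% lower and 7.93% higher), and 27 fell after rescaling (background 11.7% lower and 14.1% higher).

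Leaving out each library in turn left 30 to 32 members lower on the TPM scale. The background was 17.8% without either Bil_2D library, 32.0% without Hep_3D replicate 1 and 28.7% without Hep_3D replicate 2. Among rescaled values, 3 members remained called without Bil_2D replicate 1 (background 0.422%), which were Anxa3, S100a6 and S100a10. Only Tpm1 remained called without Bil_2D replicate 2 (0.162%). Without Hep_3D replicate 1 there were 5 (2.46%), namely Tpm4, Actn1, Cnn2, Anxa2 and S100a6, and without Hep_3D replicate 2 there were 4 (1.35%), the same set less Anxa2. S100a6 kept its call in 3 of these 4 fits.

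**Figure D2:**
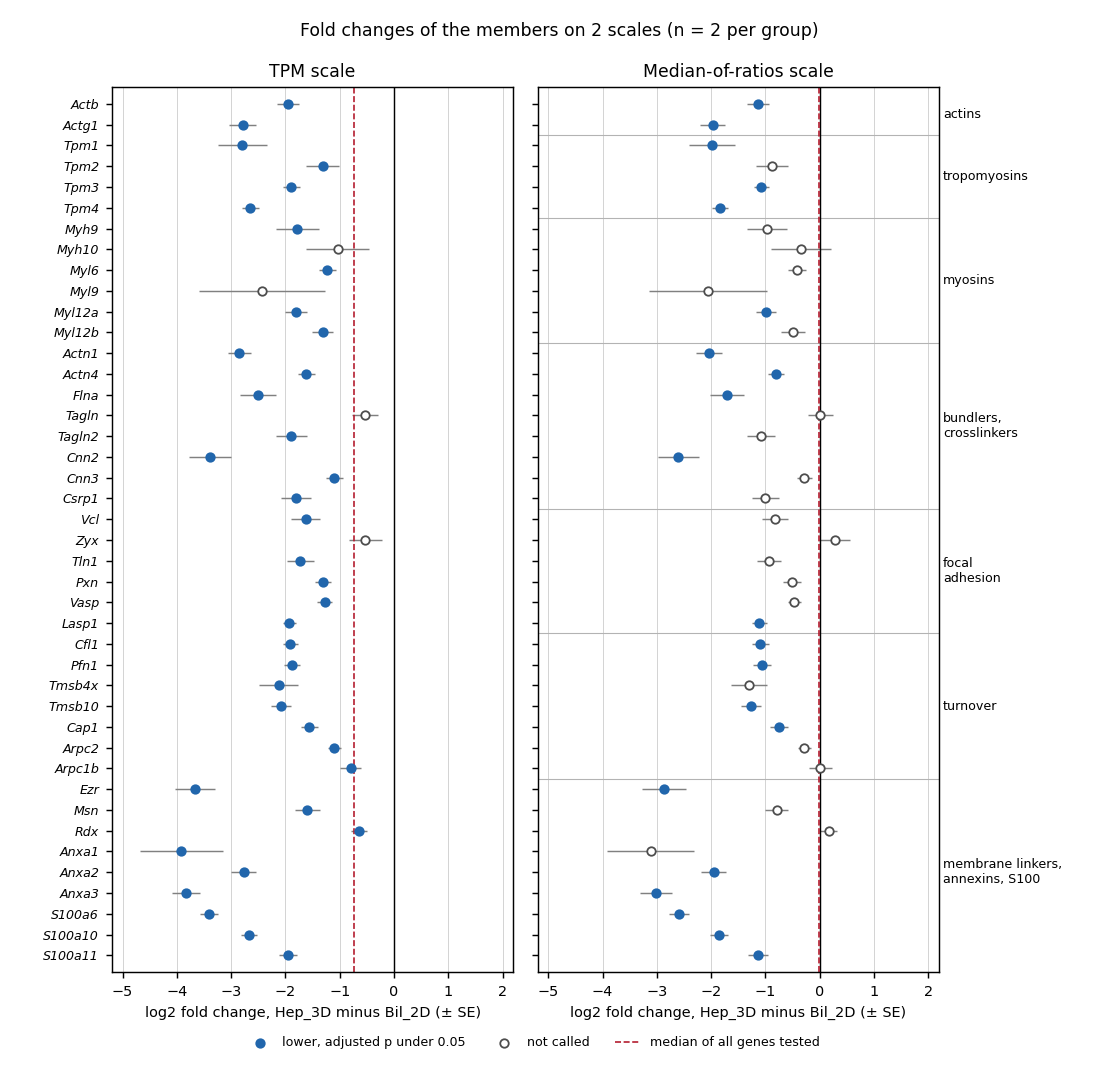
Log2 fold change (Hep_3D minus Bil_2D) of each tested member with its standard error, in TPM and after rescaling. All 42 lie below 0 on the TPM scale, while Tagln, Zyx, Arpc1b and Rdx lie above 0 after rescaling.

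Both cytoplasmic actins fell. Actb, beta-actin (chr5:142903115-142907976), stood at 2355 and 2036 TPM in Bil_2D and at 654 and 487 TPM in Hep_3D. Actg1, gamma-actin (chr11:120345687-120348495), stood at 2542 and 1817 TPM against 359 and 267. Both genes were higher in each Bil_2D library than in either Hep_3D library. The ratio of means was 3.85 for Actb (log2 fold change -1.95, SE 0.207, limma adjusted p = 0.00598) and 6.97 for Actg1 (-2.79, SE 0.253, adjusted p = 0.00531). Both calls held after rescaling, at -1.14 with adjusted p = 0.0284 and -1.98 with adjusted p = 0.0139. Acta2, the smooth muscle actin used as a marker of activated stellate cells, stood at 0.209 and 0.127 TPM in Bil_2D and at 0.0319 and 0.057 TPM in Hep_3D, under the filter. Of all 31-base words in the annotated transcripts, 23.5% of those of Actb and 40.2% of those of Actg1 also occur in transcripts of another gene, so the split of reads between copies is uncertain.

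All 4 tropomyosins, the coiled-coil proteins that coat the actin filament, fell on the TPM scale. Tpm1 stood at 1243 and 514 TPM in Bil_2D and at 119 and 109 TPM in Hep_3D. Tpm4 stood at 587 and 480 TPM against 80.3 and 87.0, and Tpm3 at 490 and 425 TPM against 132 and 112. These 3 were all abundant and apart between the groups, with Tpm1 highest in Bil_2D replicate 1. Tpm2, the scarce isoform, stood at 2.03 and 3.66 TPM in Bil_2D and 0.518 and 0.5 TPM in Hep_3D. It passed the filter only through Bil_2D, the group where it is high, so its call is not separate support for the direction of the group. The log2 fold changes were -2.80 for Tpm1 (SE 0.451, adjusted p = 0.0105), -2.65 for Tpm4 (SE 0.155, adjusted p = 0.00354), -1.89 for Tpm3 (adjusted p = 0.00513) and -1.32 for Tpm2 (adjusted p = 0.0223). Among rescaled values Tpm1 (-1.98), Tpm3 (-1.08) and Tpm4 (-1.84) kept their calls and Tpm2 did not (-0.88, adjusted p = 0.107). In TPM Tpm1 lost its call without either Hep_3D library (adjusted p up to 0.0611), and Tpm2 without Bil_2D replicate 2 or either Hep_3D library (up to 0.085).

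Of the 6 non-muscle myosin II genes, 4 fell on the TPM scale and 1 of those on both scales. Myh9, the heavy chain of myosin IIA, stood at 470 and 298 TPM in Bil_2D and at 148 and 79.4 TPM in Hep_3D. Myl12a, a regulatory light chain, stood at 489 and 406 TPM against 147 and 109, and its near-identical neighbour Myl12b at 654 and 737 TPM against 241 and 322. Myl6, the essential light chain, was the most abundant, at 1787 and 1571 TPM against 668 and 764. In all 4 the Bil_2D libraries lay above the Hep_3D libraries. The log2 fold changes were -1.78 for Myh9 (adjusted p = 0.0214), -1.81 for Myl12a (adjusted p = 0.00625), -1.31 for Myl12b (adjusted p = 0.00888) and -1.23 for Myl6 (adjusted p = 0.00737). In rescaled values only Myl12a was called (-0.99, adjusted p = 0.0327); Myl6 stood at -0.41 (adjusted p = 0.152), Myl12b at -0.50 (0.177) and Myh9 at -0.97 (0.135, or 0.0273 with the clone as a block). Myh9 lost its TPM call without either Bil_2D library or Hep_3D replicate 2 (adjusted p up to 0.0951), and Myl12b without Bil_2D replicate 2 (0.055). Myl12a and Myl12b share 17.7 and 21.3% of their 31-base words with other genes, mostly with each other, so their separate values are uncertain.

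The other 2 myosins were not called. Myh10, the heavy chain of myosin IIB, stood at 16.5 and 4.98 TPM in Bil_2D and 4.99 and 3.13 TPM in Hep_3D, so the groups overlapped (log2 fold change -1.04, adjusted p = 0.187). Myl9, the regulatory light chain typical of smooth muscle, stood at 19.3 and 1.07 TPM in Bil_2D and at 0.449 TPM in Hep_3D replicate 1, and was listed at 0 in replicate 2. Its log2 fold change was -2.43 (adjusted p = 0.135). Without Bil_2D replicate 2 it was called, at -4.07 (adjusted p = 0.0409), and that comparison sets 1 Bil_2D library of clone 15C7 against both Hep_3D libraries.

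Among the bundlers and crosslinkers, 7 of 8 tested genes fell on the TPM scale and 4 of these on both scales. Cnn2, calponin 2, stood at 137 and 106 TPM in Bil_2D and at 15.6 and 7.11 TPM in Hep_3D, a ratio of means of 10.7. Actn1, alpha-actinin 1, which crosslinks the filaments of stress fibres, stood at 300 and 330 TPM against 35.8 and 51.4. Flna, filamin A, an orthogonal crosslinker, stood at 307 and 208 TPM against 56.4 and 33.4. These 3 had the steepest falls of the group, and the libraries of the groups lay far apart. Actn4, the other non-muscle alpha-actinin, stood at 511 and 452 TPM against 171 and 142. The log2 fold changes were -3.39 for Cnn2 (SE 0.393, adjusted p = 0.0065), -2.85 for Actn1 (SE 0.213, adjusted p = 0.00454), -2.51 for Flna (SE 0.336, adjusted p = 0.00778) and -1.62 for Actn4 (adjusted p = 0.00564). They stood at -2.61, -2.04, -1.70 and -0.81 after rescaling, all called.

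Tagln2, Csrp1 and Cnn3 fell on the TPM scale alone. Tagln2, transgelin 2, stood at 841 and 591 TPM in Bil_2D and at 231 and 154 TPM in Hep_3D (log2 fold change -1.90, adjusted p = 0.0093). Csrp1, a LIM protein of stress fibres, stood at 143 and 91.0 TPM against 36.3 and 28.0 (-1.81, adjusted p = 0.00964). Cnn3, calponin 3, stood at 271 and 230 TPM against 124 and 108 (-1.10, adjusted p = 0.00831). With rescaling, Tagln2 stood at -1.08 (adjusted p = 0.055, or 0.0206 with the clone block), Csrp1 at -1.0 (0.0589, or 0.0262 with it) and Cnn3 at -0.29 (0.204). Before rescaling Tagln2 and Cnn3 lost their calls without Bil_2D replicate 1 (adjusted p = 0.0513 and 0.0507) and Csrp1 without Hep_3D replicate 2 (0.0532). Tagln, transgelin, a smooth muscle marker, stood at 3.10 and 2.33 TPM against 1.78 and 1.34 and was not called (-0.53, adjusted p = 0.118), with its sign turning after rescaling (0.01). Cnn1, calponin 1 of smooth muscle, stood at 22.9 TPM in Bil_2D replicate 1 and at 0.554, 0.512 and 0.0382 TPM in Bil_2D replicate 2 and the 2 Hep_3D libraries, so a single library carried it.

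Of 6 focal adhesion genes, 5 fell on the TPM scale and 1 of these on both scales. Lasp1, a LIM and SH3 protein of adhesions and cell edges, stood at 437 and 479 TPM in Bil_2D and at 121 and 118 TPM in Hep_3D (log2 fold change -1.93, SE 0.123, adjusted p = 0.00382). It was the one called after rescaling as well, at -1.12 (adjusted p = 0.0151). Tln1, talin 1, which links integrins to actin, stood at 79.0 and 60.1 TPM against 24.1 and 16.8 (-1.73, adjusted p = 0.00845). Vcl, vinculin, which reinforces that link, stood at 76.3 and 48.7 TPM against 21.1 and 17.3 (-1.62, adjusted p = 0.0109). Pxn, the scaffold paxillin, stood at 66.9 and 76.0 TPM against 26.7 and 29.7 (-1.31, adjusted p = 0.00609). Vasp, which speeds filament elongation, stood at 134 and 124 TPM against 56.1 and 49.4 (-1.28, adjusted p = 0.00598).

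In these 5 genes every Bil_2D library exceeded every Hep_3D library. Once rescaled, Tln1 stood at -0.93 (adjusted p = 0.0535), Vcl at -0.83 (0.0787), Pxn at -0.51 (0.0948) and Vasp at -0.47 (0.0651). With the clone block Tln1 and Vcl were called there, at adjusted p = 0.0257 and 0.039. With TPM Vcl lost its call without Hep_3D replicate 2 (adjusted p = 0.0608) and Tln1 without Bil_2D replicate 1 (0.0518). Zyx, zyxin, a LIM protein of mature adhesions, stood at 81.5 and 46.8 TPM in Bil_2D and 38.8 and 46.7 TPM in Hep_3D, with Bil_2D replicate 2 and Hep_3D replicate 2 almost level. It was not called (-0.53, adjusted p = 0.201), and its sign turned after rescaling (0.28, adjusted p = 0.534).

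All 7 genes of actin turnover fell on the TPM scale, and 4 of them on both scales. Tmsb10, thymosin beta 10, a monomer sequestering peptide, was the most abundant member, at 5426 and 5237 TPM in Bil_2D and 1395 and 1124 TPM in Hep_3D. It ranked 10 and 11 among all genes in the Bil_2D libraries and 87 and 106 in the Hep_3D libraries. Cfl1, cofilin 1, which severs filaments, stood at 2433 and 2638 TPM against 685 and 660, and Pfn1, profilin 1, which feeds monomers to growing ends, at 1960 and 2128 TPM against 597 and 517. The 3 were called on both scales, with log2 fold changes of -2.09 for Tmsb10 (adjusted p = 0.00513), -1.91 for Cfl1 (SE 0.139, adjusted p = 0.00446) and -1.88 for Pfn1 (adjusted p = 0.00507). After rescaling they stood at -1.27, -1.09 and -1.06. Of the Tmsb10 words of 31 bases, 32.0% also occur in other genes, which makes its level uncertain.

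Tmsb4x, thymosin beta 4, stood at 1344 and 706 TPM in Bil_2D and at 248 and 200 TPM in Hep_3D (log2 fold change -2.12, adjusted p = 0.0111). Cap1, which recycles monomers with cofilin, stood at 180 and 210 TPM against 70.7 and 60.3 (-1.56, adjusted p = 0.0057). Both Arp2/3 subunits, of the complex that branches filaments, fell on TPM: Arpc2 stood at 458 and 441 TPM against 204 and 215 (-1.10, adjusted p = 0.00606), and Arpc1b at 415 and 561 TPM against 295 and 260 (-0.80, adjusted p = 0.0281). Among rescaled values Tmsb4x missed the threshold (-1.31, adjusted p = 0.0594, or 0.0326 with the clone block), Cap1 passed (-0.75, 0.0442, or 0.0561 with the block), Arpc2 missed it (-0.28, 0.184), and Arpc1b lay at 0.01 (0.967). In plain TPM, Tmsb4x lost its call without either Hep_3D library (adjusted p up to 0.0651). Arpc1b kept its call only without Bil_2D replicate 1 (adjusted p up to 0.124 in the other leave-outs), and it was also lost with no filter on low values.

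The steepest falls of all were among the membrane linkers, annexins and S100 proteins, where all 9 genes fell on the TPM scale and 6 on both scales. Ezr, ezrin, which ties actin to the membrane of microvilli (chr17:6738131-6782780), stood at 361 and 612 TPM in Bil_2D and at 28.0 and 46.2 TPM in Hep_3D. Anxa3, a calcium-dependent phospholipid-binding protein (chr5:96793385-96845968), stood at 1147 and 1658 TPM against 82.7 and 111. S100a6, a small calcium-binding protein (chr3:90612894-90614414), stood at 2540 and 2974 TPM against 278 and 239. The ratios of group means were 13.1, 14.5 and 10.7, with no overlap between groups. The log2 fold changes were -3.67 for Ezr (SE 0.372, adjusted p = 0.00574), -3.83 for Anxa3 (SE 0.259, adjusted p = 0.0041) and -3.41 for S100a6 (SE 0.165, adjusted p = 0.00281), and after rescaling -2.86, -3.02 and -2.59, all called.

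Anxa1, annexin A1, had the largest log2 fold change of the members, with 232 and 689 TPM in Bil_2D and 14.4 and 44.6 TPM in Hep_3D (-3.92, SE 0.766, adjusted p = 0.0158). The 19H5 library was the higher in both groups. In rescaled values the call was lost (-3.12, adjusted p = 0.0622) but held with the clone as a block (0.00606). In TPM it was also lost without Bil_2D replicate 2 or Hep_3D replicate 1 (adjusted p up to 0.0646). Anxa2 and S100a10, which form a complex under the plasma membrane, stood at 1628 and 1799 TPM against 305 and 205, and at 886 and 1051 TPM against 151 and 151. Their log2 fold changes were -2.77 (adjusted p = 0.00513) and -2.67 (adjusted p = 0.00312), with -1.95 and -1.86 after rescaling. S100a11 stood at 3337 and 3876 TPM against 978 and 878 (-1.96, adjusted p = 0.00513, and -1.14 on the other scale), and 48.9% of its 31-base words occur in other genes, so its level is uncertain.

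Moesin and radixin, the relatives of ezrin, had smaller log2 fold changes than ezrin, a difference that was not tested. Msn stood at 241 and 223 TPM in Bil_2D and at 92.8 and 62.1 TPM in Hep_3D (log2 fold change -1.60, adjusted p = 0.00847). Rdx stood at 94.3 and 111 TPM against 66.2 and 64.2 (-0.65, adjusted p = 0.0209), a ratio of means of 1.58 with the groups apart. Neither passed after rescaling, where Msn stood at -0.79 (adjusted p = 0.0683) and Rdx at 0.16 (0.498). Before rescaling Msn lost its call without either Bil_2D library (adjusted p up to 0.0542), and Rdx in all 4 leave-outs (0.0575 to 0.0934).

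Shares within a family do not move with library scaling, and they lay apart between the groups in several families. Of the summed TPM of 6 actin genes, Actb took 48.0 and 52.8% in Bil_2D and 64.5 and 64.5% in Hep_3D, and Actg1 took 51.8 and 47.1% against 35.4 and 35.4%. Ezrin took 51.8 and 64.6% of the ezrin, radixin and moesin total in Bil_2D and 15.0 and 26.8% in Hep_3D, while Rdx took 13.6 and 11.8% against 35.4 and 37.2%. Among calponins, Cnn2 took 31.8 and 31.5% against 11.1 and 6.17%, and Cnn3 took 62.9 and 68.3% against 88.6 and 93.8%. In each of these genes the Bil_2D and Hep_3D shares did not overlap. Actn1 took 37.0 and 42.2% of the alpha-actinins in Bil_2D and 16.7 and 26.0% in Hep_3D, and Flnc, muscle filamin C, took 8.58 and 10.7% of the filamins against 2.62 and 3.41%. Tpm3 took 21.1 and 29.9% of the tropomyosins against 39.9 and 36.4%, and Tpm1 was highest in Bil_2D replicate 1, at 53.5%, with 36.1% in Bil_2D replicate 2 and 35.8 and 35.4% in Hep_3D. These shares were not tested. Many 31-base words of Actb (23.5%), Actg1 (40.2%), Tpm3 (27.0%) and Cnn3 (17.6%) occur in other genes, so their shares are uncertain.

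**Figure D3:**
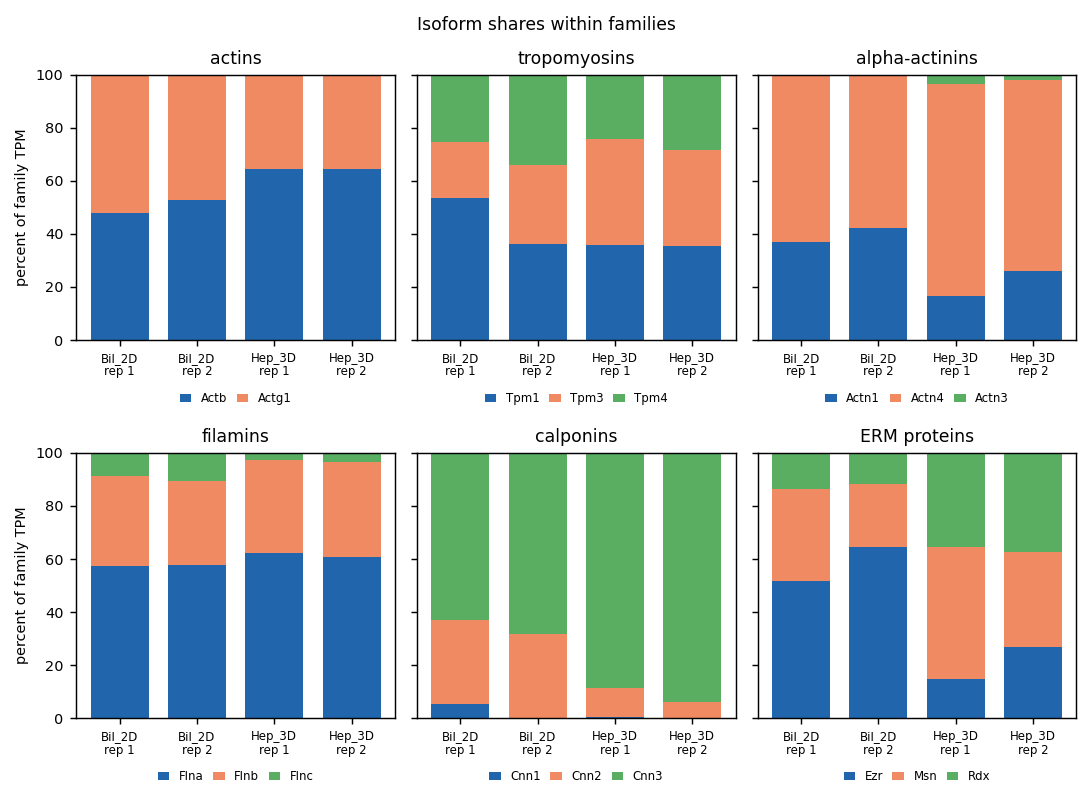
Percent of the family's summed TPM taken by each isoform in each library, for families of which members are part. Actb, Rdx and Cnn3 take a larger share of their family in the Hep_3D libraries than in the Bil_2D libraries, and Actg1, Ezr and Cnn2 a smaller one. In TPM each of these genes was lower in Hep_3D.

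Levels were also set against the summed TPM of Actb and Actg1, a ratio chosen after the values were seen. Of the other 40 tested members, 23 were higher per actin in both Hep_3D libraries than in both Bil_2D libraries, where 84.7% of all tested genes other than the 2 actins were. Another 6 were lower (Tpm4, Cnn2, Ezr, Anxa2, Anxa3 and S100a6), where 4.07% of genes were, and 11 overlapped. Per 100 TPM of the 2 actins, Myl6 stood at 36.5 and 40.8 in Bil_2D and 66.0 and 101 in Hep_3D, and Arpc1b at 8.49 and 14.6 against 29.1 and 34.4. S100a6 stood at 51.9 and 77.2 in Bil_2D and 27.4 and 31.7 in Hep_3D. So Myl6 and Arpc1b were higher, and S100a6 lower, per actin in Hep_3D, without overlap between the groups.

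No member was called between the clones. Cell state was in the limma fit, which leaves 1 residual degree of freedom. There, 0 of the 42 members were called between 19H5 and 15C7 (0 of 12336 genes, 0.0%). An unadjusted p under 0.05 was found in 13 of the 42 members, beside 1599 of the 12336 genes (13%). With rescaling, 0 were called (0.0%). An unadjusted p under 0.05 was then found in 10 of the 42 members, beside 1525 of the 12336 genes (12.4%). On both scales the share of members was above that of all genes, a difference that was not tested. With TPM all 42 members stood lower in Hep_3D in both clones. Once rescaled, 37 were lower in both, 2 higher in both, and 3 went in opposite directions (Myh10, Zyx and Arpc1b). The fall was larger in 15C7 for 16 members and larger in 19H5 for 26, with a median gap of 0.25 log2 units. A gap over 1 log2 unit was found in 4 members: Myl9 (-3.81 in 15C7 and -1.05 in 19H5), Tpm1 (-3.37 and -2.22), Zyx (-1.05 and -0.00) and Myh10 (-1.54 and -0.54). Each clone gave 1 library per state, so the difference in change between clones was not tested. Anxa1 stood at 14.4 TPM in Hep_3D 15C7 and 44.6 in Hep_3D 19H5, and its change was -3.92 in both clones.

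**Figure D4:**
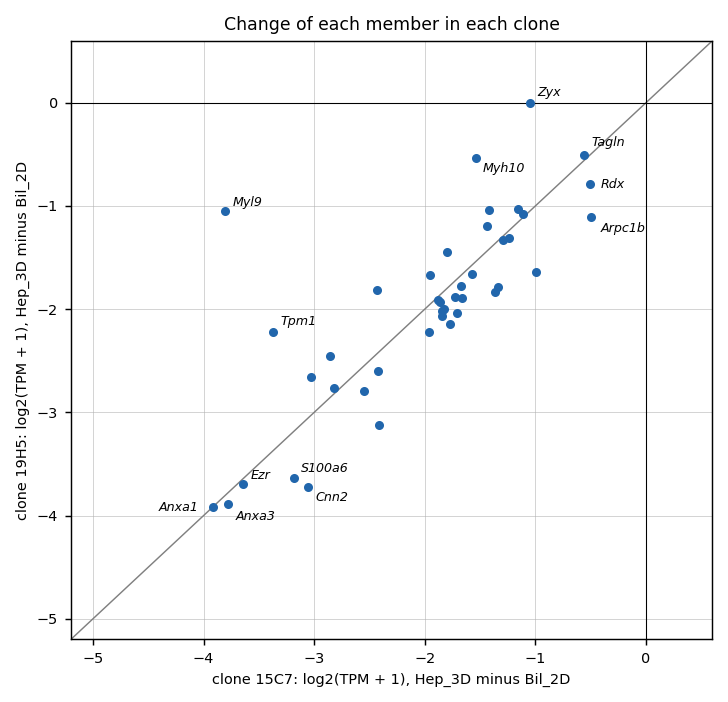
Log2 change (Hep_3D minus Bil_2D) of each tested member in clone 15C7 and in clone 19H5, on the TPM scale. All 42 points lie below 0 in both clones, and Myl9, Tpm1, Zyx and Myh10 lie farthest from the diagonal.

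Other genes of actin biology were read from 8 lists holding 184 genes, chosen with earlier results of these data known. Of the 151 tested genes across all 8 lists, 98 fell and 4 rose on the TPM scale (background 51.9% lower and 6.80% higher). After rescaling 34 fell and 7 rose (background 9.54% lower and 11.9% higher). The calls on both scales, TPM first and median-of-ratios second, ran as follows in 7 of the lists, with tested genes after each. Among Arp2/3, WAVE complex and nucleator genes 17 fell and 0 rose, then 5 and 0, of 20. Among other capping, severing and monomer-binding proteins 14 fell and 0 rose, then 6 and 0, of 19. Other bundlers gave 14 lower and 1 higher, then 6 and 1, of 19, and focal adhesion adaptors 19 and 2, then 10 and 4, of 31. Muscle-restricted isoforms gave 1 and 0, then 0 and 0, of 4. Other non-muscle myosins gave 9 and 0, then 1 and 1, of 16, and other annexins and S100 proteins 8 and 0, then 1 and 0, of 18. In the muscle-restricted list and the annexin and S100 list, the share called lower lay below the background on both scales. In the myosin list it lay below the background after rescaling. These differences were not tested. Leaving out each library in turn left fewer lower calls among the 151 tested genes of all 8 lists on both scales. For the capping, muscle-restricted, and annexin and S100 lists, the number of lower calls stayed the same in some of these fits. Each such fit leaves 1 library in a group.

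The largest changes in the lists were in bundlers. Fscn1, fascin, which packs filaments of filopodia, stood at 74.6 and 129 TPM in Bil_2D and at 0.887 and 0.876 TPM in Hep_3D (log2 fold change -5.72, SE 0.306, adjusted p = 0.00312). It passed the filter only through Bil_2D, the group where it is high. Flnc stood at 45.8 and 38.6 TPM against 2.38 and 1.88 (-3.79, adjusted p = 0.00308). Both kept their calls in every leave-out, and both were called after rescaling, at -5.11 and -3.10. Sorbs2, an adaptor of adhesions and stress fibres, stood at 298 and 278 TPM against 33.0 and 37.3 (-3.00, adjusted p = 0.00247), and Parvb, beta-parvin, at 56.3 and 35.4 TPM against 6.13 and 2.49 (-3.20, adjusted p = 0.00812). Fhl2 stood at 23.0 and 26.2 TPM against 3.28 and 1.92 (-2.85, adjusted p = 0.00525). Dbn1, drebrin, stood at 44.5 and 6.59 TPM against 1.95 and 0.598 (-3.10, adjusted p = 0.0479), but kept its call in 1 of 4 leave-outs, and Parvb lost its own without Bil_2D replicate 1 (adjusted p = 0.0508).

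Only 4 genes of the lists rose in TPM. Actn3, the alpha-actinin of fast muscle, stood at 0.122 and 0.280 TPM in Bil_2D and at 7.62 and 3.74 TPM in Hep_3D (2.41, adjusted p = 0.00921). Arhgap29 stood at 0.902 and 0.625 TPM against 6.62 and 3.82 (1.79, adjusted p = 0.0119, and 2.29 with adjusted p = 0.0167 after rescaling). Both passed the filter only through Hep_3D, the group where they are high, and both lost their calls without either Bil_2D library. Lims2 (11.1 and 5.41 against 18.0 and 19.9 TPM) and Fermt2, kindlin-2 (33.4 and 25.4 against 46.0 and 45.5 TPM), rose by 1.18 and 0.63 on the log2 scale, with adjusted p = 0.0441 and 0.0396. Lims2 kept its call in 1 of 4 leave-outs and Fermt2 in 0.

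Among regulators and nucleators, Diaph3, a formin, stood at 11.5 and 10.2 TPM in Bil_2D and 1.74 and 0.486 TPM in Hep_3D (log2 fold change -2.55, adjusted p = 0.00828, called in 2 of 4 leave-outs). Rock2, a kinase that activates myosin, stood at 49.7 and 51.0 TPM against 9.58 and 12.2 (-2.12, adjusted p = 0.00503). The formin Fmnl3 (-2.11) and the Arp2/3 subunits Arpc5 (-1.69) and Actr3 (-1.53) fell with adjusted p = 0.00815, 0.00446 and 0.00593. Srf, the transcription factor itself, named outside the rule and chosen after its values were seen, stood at 26.5 and 19.1 TPM against 13.9 and 9.92. It was called at -0.88 (adjusted p = 0.0436), lost that call in all 4 leave-outs, and stood at -0.11 (adjusted p = 0.759) after rescaling.

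Turnover proteins, motors, annexins, S100 proteins and muscle-restricted genes come last. The rule names called genes only, and 0 genes of these lists were called higher in TPM. Those named below thus had to be lower in Hep_3D, and their values are in TPM. After rescaling, 6 of 19 tested turnover proteins and 1 of 16 tested myosins were called lower. So were 1 of 18 annexins and S100 proteins and 0 of 4 muscle-restricted genes. Rescaled log2 fold changes were positive in 3, 7, 10 and 2 of these genes, in that order. Gsn, gelsolin, which severs and caps filaments, stood at 75.7 and 66.0 TPM in Bil_2D and at 6.76 and 16.7 TPM in Hep_3D (log2 fold change -2.61, adjusted p = 0.0109, called in 2 of 4 leave-outs). Twf2 (-2.29, adjusted p = 0.00454) and Tmod3 (-1.77, 0.00513) kept their calls in every leave-out. Myo6, which moves to the minus end of the filament, stood at 66.4 and 56.2 TPM against 11.4 and 20.3 (-1.94, adjusted p = 0.0101, called in 2 of 4). Myo5a (-1.66, adjusted p = 0.00587) was called in 4 of 4, and Myo5c (-1.61, 0.0206) in 1 of 4. Anxa5 stood at 656 and 485 TPM against 122 and 104 (-2.32, adjusted p = 0.00513), and Ahnak, a large partner of the annexin A2 complex, at 69.8 and 110 TPM against 24.2 and 23.2 (-1.84, adjusted p = 0.00806). S100a3 stood at 2.08 and 6.26 TPM against 0.159 TPM in Hep_3D replicate 2 and a listed 0 in replicate 1 (-2.13, adjusted p = 0.0218, called in 2 of 4), and it too passed the filter only through Bil_2D. Smtnl2, the 1 muscle-restricted gene called, stood at 8.25 and 8.06 TPM against 2.59 and 4.06 (-1.10, adjusted p = 0.0211, called in 1 of 4 leave-outs).

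**Figure D5:**
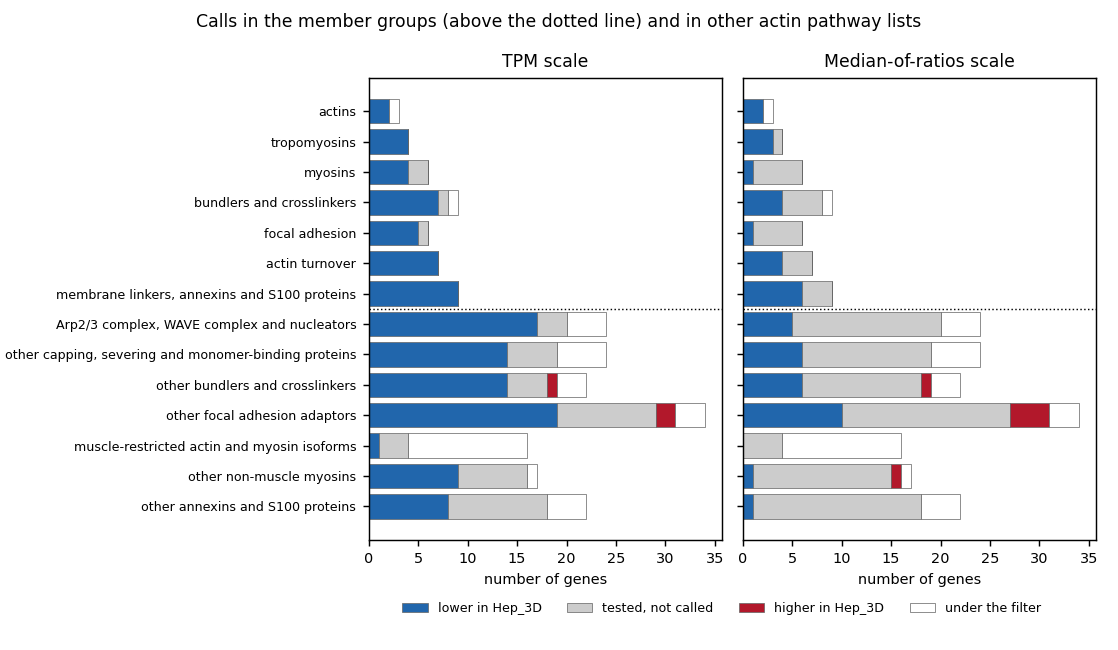
Number of genes called lower and higher in Hep_3D in each of the member groups and in 7 of the pathway lists, in TPM and after rescaling. Most lists hold mainly lower calls on the TPM scale; the rescaled values has fewer, and 4 higher calls among the focal adhesion adaptors.

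Markers of other cells were read beside the members, since smooth muscle, stellate cells and fibroblasts express many of these genes. Of 15 fibroblast and stellate cell markers 1 was tested, Dcn. Their summed TPM was 5.79 and 1.53 in Bil_2D and 180 and 3.91 in Hep_3D, high in Hep_3D replicate 1 alone. Dcn held 178 of that 180 TPM, with 2.79 in Hep_3D replicate 2 and 2.38 and a listed 0 in Bil_2D. It was not called, except on the TPM scale with the clone as a block (limma adjusted p = 0.0479). Every other marker of that list stayed at or under 1.17 TPM. Of 8 smooth muscle markers 2 were tested, Smtn and Mylk, and the summed TPM was 51.2 and 33.0 against 17.4 and 5.68. Smtn alone held 44.9 and 24.2 against 10.6 and 4.48 and was called lower. Mylk held 5.79 and 8.21 against 6.74 and 1.003 and was not called. The defining heavy chain Myh11 with Des, Lmod1, Synpo2 and Myocd stayed at or under 0.228 TPM. Endothelial markers summed to 0.497 and 0.208 TPM in Bil_2D, against 0.0937 and 0.084, with Lyve1, Clec4g and Emcn at 0. Leukocyte markers summed to 8.01 and 14.1 against 2.95 and 3.18, with Cd3e at 0. Of these, Cd68 held 4.498 and 11.7 against 0.674 and 1.74 and was called lower (limma adjusted p = 0.0322). Csf1r, the other leukocyte marker tested, was not called. After rescaling, Smtn and Cd68 were called only with the clone as a block. The part of these other cells in the results was not tested. Of 10 hepatocyte markers 8 rose in Hep_3D on the TPM scale, where 6.80% of all tested genes rose. Of 9 tested biliary markers 4 fell and 1 rose, where 51.9% of all tested genes fell. After rescaling 8 hepatocyte markers rose, while 2 biliary markers fell and 1 rose. The background there was 9.54% lower and 11.9% higher. Muc1, another biliary marker, also stood higher in both Hep_3D libraries, but was called with the clone as a block and not without it. Alb, the hepatocyte marker, stood at 140 and 18.4 TPM in Bil_2D and at 15033 and 11217 TPM in Hep_3D, and Krt19, the biliary keratin, at 752 and 1615 TPM against 1.12 and 15.9. The biliary marker that rose was Spp1, at 4176 and 6092 TPM in Bil_2D against 13093 and 9284 TPM. It made up most of the summed TPM of the biliary markers, which was 5817 and 9358 in Bil_2D and 13156 and 9457 in Hep_3D, so that by this sum the biliary list was not lower in Hep_3D.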

How the data were processed

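RNA from 4 libraries was sequenced. Per the submitters' processing notes, Salmon, DESeq2 and the mm10 build were used, with no roles or versions given. The authors deposited TPM per gene, 1 column per library, each summing to 1000000. The counting, the annotation and the handling of strand are not given in the sources used here. TPM is no count and holds no depth, so precision rests on the spread between 2 libraries per group.

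From these values log2(TPM + 1) was fitted over the 12336 genes that reached 1 TPM in 2 or more libraries (limma 3.58.1, R 4.3.3, empirical Bayes with a trend, 2 residual degrees of freedom), with Benjamini-Hochberg adjustment over all of them, and again after division by median-of-ratios size factors. The fit was tested on simulated data with independent noise in each library. That simulation held neither the pairing by clone nor a shift of the typical gene, so it does not cover these features of the data. Same-numbered libraries come from the same clone by their labels, and their deviations from the group means correlated at 0.414 over genes, so the clone is a pairing. Shares of 31-base words came from GENCODE vM21 transcripts, coordinates and promoters from RefSeq GRCm38.p6. Named genes followed a rule: in each member group up to 5 with the largest absolute log2 fold change and those whose call differed between scales; in each pathway list the 3 called genes with the largest change and up to 2 against the trend. Members and lists were chosen with earlier results of these data known. Alternatives were other pseudocounts, filters, scalings, variance models, the replicate block, a minimum fold and leaving out each library. The counts of 1 pathway list are not reported here.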

Additional observations from a re-analysis of the deposited data

Results flagged for a closer look

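In 7 results the 2 clones moved in opposite directions between the cell states; each rests on 1 library per clone and state, and the difference was not tested. On the median-of-ratios scale Myh10 stood at -0.80 (log2, Hep_3D minus Bil_2D) in clone 15C7 and at 0.11 in 19H5. Zyx stood at -0.24 in 15C7 and at 0.79 in 19H5. Arpc1b stood at 0.33 in 15C7 and at -0.30 in 19H5. For shares of a family's TPM, a minimum change of 1 percentage point was set. Tmsb4x changed by -4.74 percentage points in 15C7 and 3.21 in 19H5, and Tmsb10 by 4.74 and -3.21. These 2 genes make up their whole family, so the values mirror each other and are not separate results. The share of Arpc1b among the p41 subunits of the Arp2/3 complex changed by 3.58 points in 15C7 and -6.34 in 19H5. The share of Tln1 among the talins changed by 1.87 points in 15C7 and -1.73 in 19H5.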

How the results depend on the processing

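On the TPM scale, 38 members were lower with pseudocounts of 0.1 or 5, without a trend, with robust estimation and with the replicate block. The count was 37 without a filter, 37 of only 38 members tested with at least 5 TPM, and 36 with a minimum absolute log2 fold change of 1. It was 30 with quantile normalization (background 14.1%) or with the 50 most abundant genes left out (background 18.2%). Tmsb10 was among the genes left out in that last setting, so it was not tested there. It was 21 on the median-of-ratios scale, also with a pseudocount of 0.1, 27 there with the replicate block, and 3, 1, 5 and 4 there without Bil_2D replicate 1, Bil_2D replicate 2, Hep_3D replicate 1 and Hep_3D replicate 2. Leaving out each library on the TPM scale gave 30 to 32. No setting gave a higher call among the members (0).

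Signs turned for 6 genes, and the cause was not tested. On the median-of-ratios scale Tagln stood at 0.0143 (also with the replicate block; 0.0201 with a pseudocount of 0.1; 0.13 without Bil_2D replicate 1 and 0.13 without Hep_3D replicate 2). Zyx stood at 0.28 (0.28 with the block and with 0.1), 0.63, 0.43 and 0.12 in leave-outs of Bil_2D replicate 1, Hep_3D replicate 1 and Hep_3D replicate 2, at 0.14 with quantile normalization and 0.0161 with the top genes left out. Arpc1b stood at 0.0142 (also with the block; 0.0143 with 0.1), 0.27 without Bil_2D replicate 2 and 0.0795 without Hep_3D replicate 2. Rdx stood at 0.16 (also with the block and with 0.1), 0.0055, 0.32, 0.17 and 0.16 in the leave-outs and 0.0112 with quantile normalization. Also rescaled, Myh10 stood at 0.37 without Bil_2D replicate 1, and Srf at 0.074 without Bil_2D replicate 1 and 0.0926 without Hep_3D replicate 2. Between clones 0 members were called in every fit run. Where a leave-out left 1 library in a group, that library was assumed to vary like the other group. Depth sets no known limit here, because TPM holds none.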
